A study of Mesostigma viride with 16 samples.

Results

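The DCL1 homolog (Mv09111-RA) and the HST homolog (Mv00726-RA) of *Mesostigma viride*, a unicellular flagellated freshwater alga of the lineage that also holds land plants, were described in every library of a stress experiment. Both genes carry these names in the study's list of epigenetic genes, where they stand for the processing and the export of small RNAs. They are 2 of the 24431 genes in the deposited tables and 2 of the 14297 genes that passed the minimum for testing, 0.5 FPKM or more in 2 or more libraries. FPKM is a count of fragments divided by the transcript's length and by the size of the library. The pair was picked because its levels under high light and in cold had been seen, so those 2 comparisons are described here without a test.

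All cultures were strain NIES-296 without genetic change, 24 days old when used, and the treated ones were exposed for 24 h. Control 1 was the reference for darkness, high light (400 µmol photons per m2 per s), cold (12 °C) and high temperature (32 °C), and Control 2 the reference for media of pH 6.0 (low pH) and 9.0 (high pH). Both controls were kept at 23 °C, 50 µmol photons per m2 per s and pH 7.5. The paper describes Control 1 as untreated cells, and Control 2 as untreated cells with an equal volume of medium at pH 7.5. The 2 controls may therefore differ in handling. Each condition had 2 biological replicates, except that 1 library of Control 1 was used here, so Control 1 has no SD and the 4 comparisons with it share that library.

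In plants, DCL1 is the Dicer-like ribonuclease that cuts hairpin precursors in the nucleus into microRNA duplexes. ARGONAUTE proteins hold the guide strand and act on matching transcripts. CBP80, a subunit of the cap-binding complex, and the DCL1 partner DAWDLE (DDL) help precursors to be processed. RNA-dependent RNA polymerases (RDR) make double-stranded RNA for other small RNAs. HASTY, an exportin abbreviated HST, takes part in moving microRNAs out of the nucleus in Arabidopsis. The role listed for Mv00726-RA is less certain than its name. The study's list pairs it with the Arabidopsis locus AT3G11945, which encodes homogentisate solanesyltransferase, a plastid enzyme of plastoquinone synthesis that is also abbreviated HST, and not HASTY. No sequence of Mv00726-RA was among the data used here, so which protein it resembles was not tested. Mv00726-RA is therefore called HST below by its listed name alone. The locus given for Mv09111-RA, AT1G01040, is that of Arabidopsis DCL1, and Mv09111-RA is the only *M. viride* gene listed under DCL1. The paper describes several Dicer-like and Argonaute orthologs in the genome, so Mv09111-RA need not be its only Dicer-like gene.

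The 2 genes moved apart at high temperature. DCL1 was 22.7-fold lower there than Control 1 in FPKM as deposited, where most genes tested also had lower values. HST was 3.35- to 5.02-fold above Control 1 at high temperature, in cold and under high light. With libraries scaled by the median of gene ratios, the high temperature log2 differences were -2.95 for DCL1 and 3.04 for HST. DCL1 also had lower values in cold and high light, but less so against Control 2. Cold and high light picked the pair, so they are a description. Both genes stayed within 2-fold of their control in darkness, low pH and high pH. The ratio of HST to DCL1 within a library spanned 1.09 to 111.

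At high temperature DCL1 had 0.222 and 0.255 FPKM, against 5.42 FPKM in Control 1. Both values lie below every one of the 13 other libraries, of which the lowest, a cold library, had 2.33 FPKM and the highest, a darkness library, 5.55 FPKM. The mean of 0.238 ± 0.0230 FPKM (SD, n = 2) was 22.7-fold lower than Control 1. On the log2(FPKM + 0.1) scale, on which the added 0.1 makes the change of a low gene smaller, DCL1 fell by 4.03 (SE 0.16, adjusted p = 7.36e-10, limma). A gene was called differentially expressed where the adjusted p did not exceed 0.01 and the levels differed by 2-fold or more, a log2 difference of 1 in size. At high temperature 62.2% of all genes tested were called, and 55.3% of all genes tested as lower, so a lower call there is common.

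The high temperature libraries stood apart in their whole distribution. Their median tested gene had 2.57 and 2.98 FPKM, against 7.14 to 8.58 FPKM in the other 13 libraries, and the median log2 difference of all tested genes from Control 1 was -1.29. Relative to that shift DCL1 was 2.74 lower on the log2 scale, and 4.63% of tested genes lay lower. By rank, DCL1 stood at percentile 42.4 and 45.7 of all genes in the high temperature libraries, against 54.4 to 63.8 in the other libraries. FPKM is a share of each library's fragments, so less of this transcript per cell and more of the other transcripts cannot be told apart.

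HST had 24.7 and 25.5 FPKM at high temperature, against 7.49 FPKM in Control 1. The direction of most genes depended on scaling. Their median log2 difference from Control 1 was -1.29 as deposited and -0.04 with libraries scaled by the median of gene ratios. As deposited, HST went the opposite way to most genes. Its mean of 25.1 ± 0.541 FPKM (SD, n = 2) was 3.35-fold higher than Control 1, a log2 difference of 1.73 (SE 0.11, adjusted p = 4.25e-08, limma), and a call as higher was made for 6.83% of all genes tested. Relative to the median of all genes HST was 3.02 higher on the log2 scale, and 3.44% of tested genes lay higher. HST was expressed at 8.28 and 9.91 times the median tested gene of its own library at high temperature, against 0.872 times in Control 1. With Control 2 as the reference, which does not use the single Control 1 library, the high temperature log2 differences were -3.55 for DCL1 and 1.97 for HST, and both were called.

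**Figure D1:**
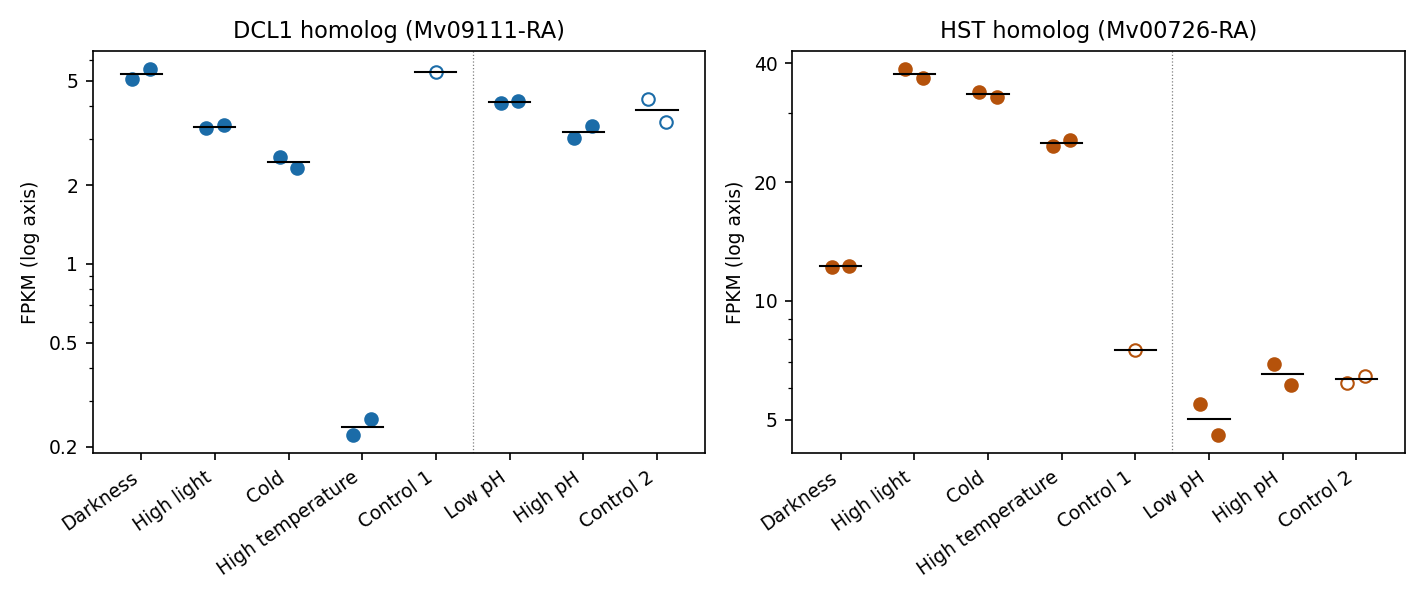
FPKM of DCL1 (left) and HST (right) in each library, on log axes; each point is a library, filled for treatments and open for controls, the bars are means, and the dotted line separates the conditions compared with Control 1 from those compared with Control 2. DCL1 sits at 0.222 and 0.255 FPKM at high temperature and at 2.33 FPKM or more in all other libraries, and HST is highest under high light (38.7 and 36.6 FPKM).

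Under high light HST had 38.7 and 36.6 FPKM, against 7.49 FPKM in Control 1. These are the 2 highest HST values of the 15 libraries. The mean of 37.6 ± 1.47 FPKM (SD, n = 2) was 5.02-fold that of Control 1 (log2 difference 2.31, SE 0.11). Among all genes tested 5.81% were called under high light, and nothing is read from that share for a gene chosen by this contrast.

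DCL1 had 3.31 and 3.38 FPKM under high light, against 5.42 FPKM in Control 1. This is a mean of 3.35 ± 0.0513 FPKM (SD, n = 2), 0.617 times Control 1 (log2 difference -0.68, SE 0.16). The value depends on the control, since Control 2, kept at the same stated temperature, light and pH as Control 1, had 4.26 and 3.48 FPKM. Against Control 2 the difference was -0.20.

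In cold HST had 33.9 and 32.8 FPKM, against 7.49 FPKM in Control 1. The mean was 33.3 ± 0.738 FPKM (SD, n = 2), 4.45-fold that of Control 1 (log2 difference 2.14, SE 0.11). DCL1 had 2.56 and 2.33 FPKM in cold, lower than in any library other than those of high temperature. Its mean of 2.44 ± 0.163 FPKM (SD, n = 2) was 0.451 times the 5.42 FPKM of Control 1 (log2 difference -1.12, SE 0.16). Of all genes tested 12% were called in cold, 8.28% as lower. Against Control 2 the cold difference of DCL1 was -0.64, a change of under 2-fold.

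In darkness HST lay above both controls, whereas DCL1 lay around its value in Control 1. HST had 12.2 and 12.3 FPKM in darkness, against 7.49 FPKM in Control 1, and 6.20 and 6.45 FPKM in Control 2. It was 1.63-fold higher than in Control 1 (log2 difference 0.70, SE 0.11, adjusted p = 0.000689, limma), which passed the p threshold but is under 2-fold and so was not called, and 4.60% of tested genes lay higher. Over the alternative settings this adjusted p ran from 9.42e-06, with Control 2 as the reference, to 0.0129 in a fit to darkness and Control 1 alone.

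DCL1 had 5.11 and 5.55 FPKM in darkness, on either side of the 5.42 FPKM of Control 1. Its log2 difference was -0.02 (SE 0.16, adjusted p = 0.937, limma). Against Control 2 the difference was 0.46, with an adjusted p of 0.0127, since Control 2 was itself lower in DCL1 than Control 1 by a log2 difference of -0.48 (adjusted p = 0.0717), a comparison in which 3.39% of all genes tested were called. In darkness 5.15% of all genes tested were called, and neither DCL1 nor HST was among them.

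Neither gene was called under altered pH, where 1.57% of all genes tested were called at low pH and 2.25% at high pH. HST had 5.47 and 4.57 FPKM at low pH, against 6.20 and 6.45 FPKM in Control 2. The log2 difference of -0.33 (SE 0.09) had an adjusted p of 0.0248 (limma), which misses the threshold of 0.01. Across the alternative settings that p ran from 0.00904 to 0.201. At high pH HST had 6.90 and 6.12 FPKM, which spans the Control 2 values (log2 difference 0.04, SE 0.09, adjusted p = 0.805).

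DCL1 had 4.11 and 4.21 FPKM at low pH, against 4.26 and 3.48 FPKM in Control 2. The low pH values lie within the range of Control 2 (log2 difference 0.11, SE 0.13, adjusted p = 0.629). At high pH DCL1 had 3.03 and 3.38 FPKM, below both Control 2 libraries, but the log2 difference of -0.26 (SE 0.13) had an adjusted p of 0.166.

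**Figure D2:**
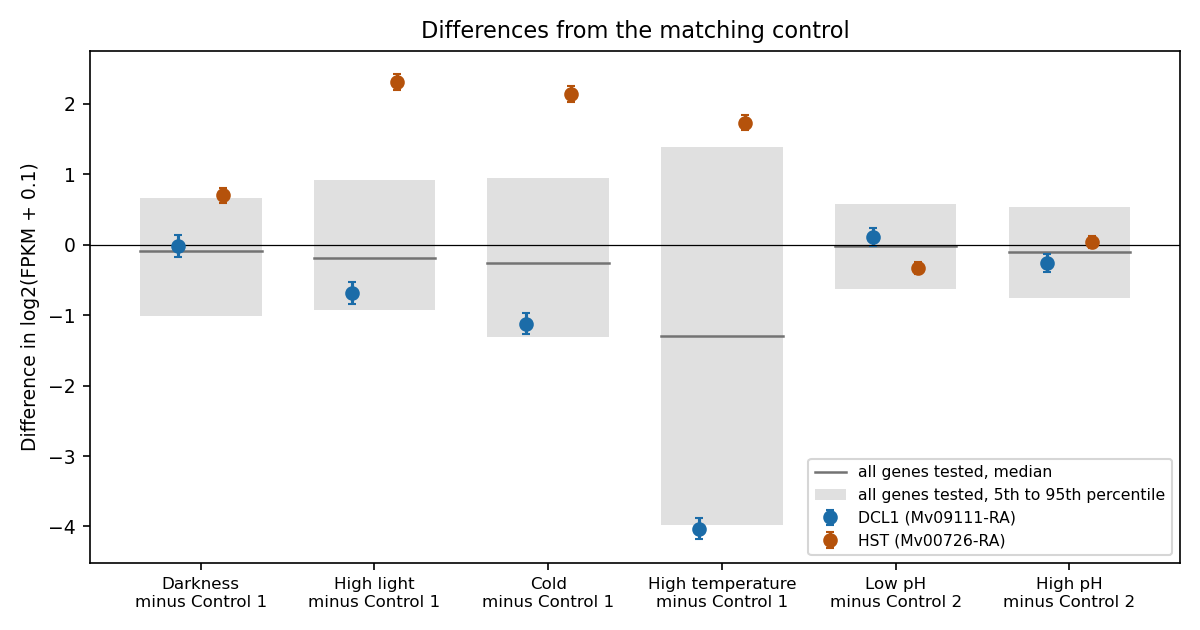
Difference in log2(FPKM + 0.1) from the matching control for DCL1 (blue) and HST (orange), with standard errors from the limma fit as bars; grey blocks span the 5th to the 95th percentile of all genes tested and the grey line is their median. HST lies above the grey block at high temperature (1.73) and just above it in darkness (0.70), its values under high light (2.31) and in cold (2.14) are a description because they chose the gene, and DCL1 lies just below it at high temperature (-4.03), where the whole distribution is shifted to a median of -1.29.

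Ordered by level, HST was highest under high light (37.6 FPKM), followed by cold (33.3), high temperature (25.1), darkness (12.2), Control 1 (7.49), high pH (6.51), Control 2 (6.32) and low pH (5.02). Neighbours in this order did not overlap, except that Control 2 lay within the range of high pH. With 1 or 2 libraries per condition, nothing is read from a lack of overlap. High light and cold, which picked the gene, take the first 2 places in this order. This order holds for FPKM as deposited: divided by the median tested gene of each library, HST was highest at high temperature (9.10 times, against 4.98 under high light and 4.62 in cold), and Control 1 changed places with high pH. The order of DCL1 was Control 1 (5.42 FPKM), darkness (5.33), low pH (4.16), Control 2 (3.87), high light (3.35), high pH (3.20), cold (2.44) and high temperature (0.238). Here Control 1 and darkness overlapped, as did low pH and Control 2, and high light and high pH. Divided by the library median, DCL1 kept this order except that darkness came before Control 1.

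The ratio of the FPKM of HST to that of DCL1 within a library does not depend on how libraries are scaled to each other. It was 111 and 100.1 at high temperature, 13.2 and 14.1 in cold, 11.7 and 10.8 under high light, and 2.38 and 2.21 in darkness, against 1.38 in Control 1. At low pH it was 1.33 and 1.09 and at high pH 2.28 and 1.81, against 1.45 and 1.85 in Control 2. HST therefore exceeded DCL1 in all 15 libraries on this per-length scale, by the least at low pH. High temperature, cold, high light and darkness each lay above the 3 untreated libraries, high pH overlapped Control 2, and low pH lay below it. Cold and high light picked the pair, so their ratios are a description. How often other gene pairs separate in this way was not tested.

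**Figure D3:**
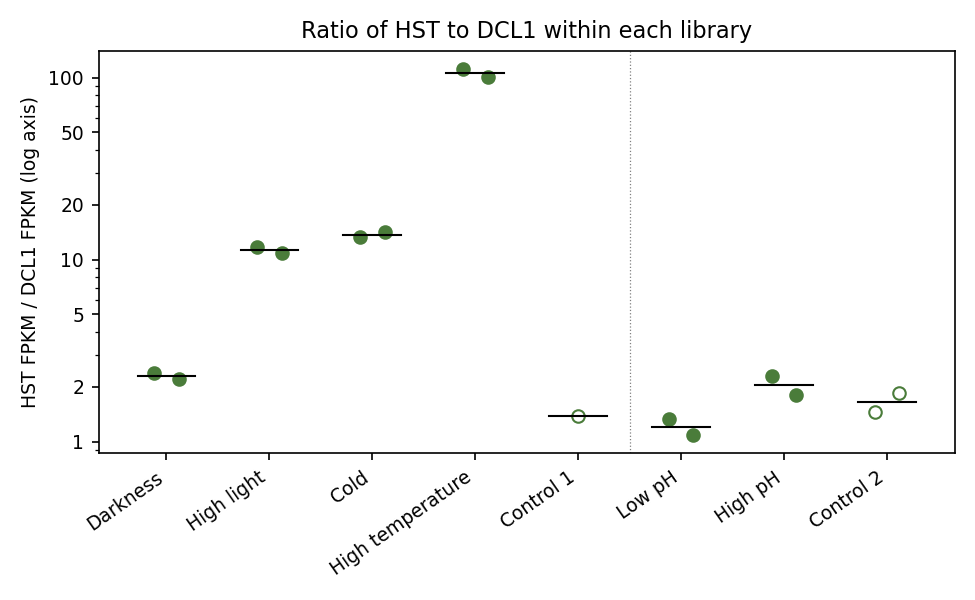
Ratio of HST FPKM to DCL1 FPKM within each library, on a log axis; points are libraries, filled for treatments and open for controls, bars are means, and the dotted line separates conditions compared with Control 1 from those compared with Control 2. The ratio is 100.1 and 111 at high temperature, 10.8 to 14.1 under high light and in cold, and 1.09 to 2.38 in the other libraries. High light and cold picked the pair, so their ratios are a description.

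Besides DCL1 and HST, the study's list holds 9 genes with small RNA roles, of which 7 were expressed highly enough for a test. Outside high temperature none of the 7 was called in any comparison. Over all genes tested the share called was 5.15% in darkness, 5.81% under high light, 12% in cold, 1.57% at low pH and 2.25% at high pH. Beside such shares nothing is read from the absence of calls among 7 genes. Genes that passed the p threshold alone were under 2-fold by the definition of a call. Unadjusted limma p-values under 0.05 were found for 1 of the 7 in darkness, 3 under high light, 3 in cold, 1 at low pH and 2 at high pH. The share of all genes under that limit is not given for the treatment comparisons, so nothing is read from such counts here or below. The median log2 difference of the 7 genes was -0.11 in darkness, 0.03 in cold and 0.08 under high light, against -0.10, -0.26 and -0.20 for all genes tested. It was -0.03 at both low pH and high pH, against -0.02 and -0.10 for all genes tested.

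At high temperature 3 of the 7 were called as lower and 0 as higher (all 7 had unadjusted p-values under 0.05), beside 55.3% and 6.83% of all genes tested. Their median of -0.84 lay above the -1.29 of all genes tested. The genes called as lower were named after their values were seen. CBP80 (Mv02610-RA), a subunit of the cap-binding complex, had 4.28 and 4.14 FPKM at high temperature, against 12.9 FPKM in Control 1. The ARGONAUTE gene Mv14966-RA had 13.2 and 11.7 FPKM, against 34.5 FPKM in Control 1, and the RDR2-block gene Mv14178-RA had 2.26 and 1.66 FPKM, against 7.95 FPKM in Control 1. Their log2 differences of -1.59, -1.46 and -1.98 are each smaller in size than the -4.03 of DCL1.

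The direction of these list calls depends on how libraries are scaled. With libraries scaled by the median of gene ratios, which removes the shift of the whole high temperature distribution, 0 of the 7 were called as lower and 2 as higher. These, also named after their values were seen, were another ARGONAUTE gene, Mv09951-RA (log2 difference 1.84, against 0.52 without that scaling), and a second RDR2-block gene, Mv09891-RA (2.47, against 1.17). DCL1 and HST kept their calls and directions under it, with log2 differences of -2.95 and 3.04.

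The genes of the list differed widely in level. Among the ARGONAUTE genes Mv19718-RA had the highest mean, 44.8 FPKM (27.9 to 52.0 over the 15 libraries), and Mv05968-RA the lowest, 0.152 FPKM, with no library above 0.232. Among the RDR2-block genes, Mv14178-RA had the highest mean, 6.73 FPKM (1.66 to 8.45), and Mv10979-RA was listed at 0.0201 FPKM or less in all libraries. CBP80 had a mean of 11.7 FPKM (4.14 to 17.4) and DDL (Mv04943-RA) 13.5 FPKM (7.57 to 17.4). Between its lowest and highest library, DCL1 varied 25-fold and HST 8.46-fold, whereas the 7 tested genes of the list varied 1.63- to 5.35-fold. The DCL1 range rests on high temperature, and without those libraries it was 2.39-fold. The HST range is set by high light, by which the pair was picked, so nothing is read from its width. Other epigenetic genes above 0 in all libraries varied from 1.79-fold (Mv17580-RA) to 72.0-fold (Mv10940-RA).

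**Figure D4:**
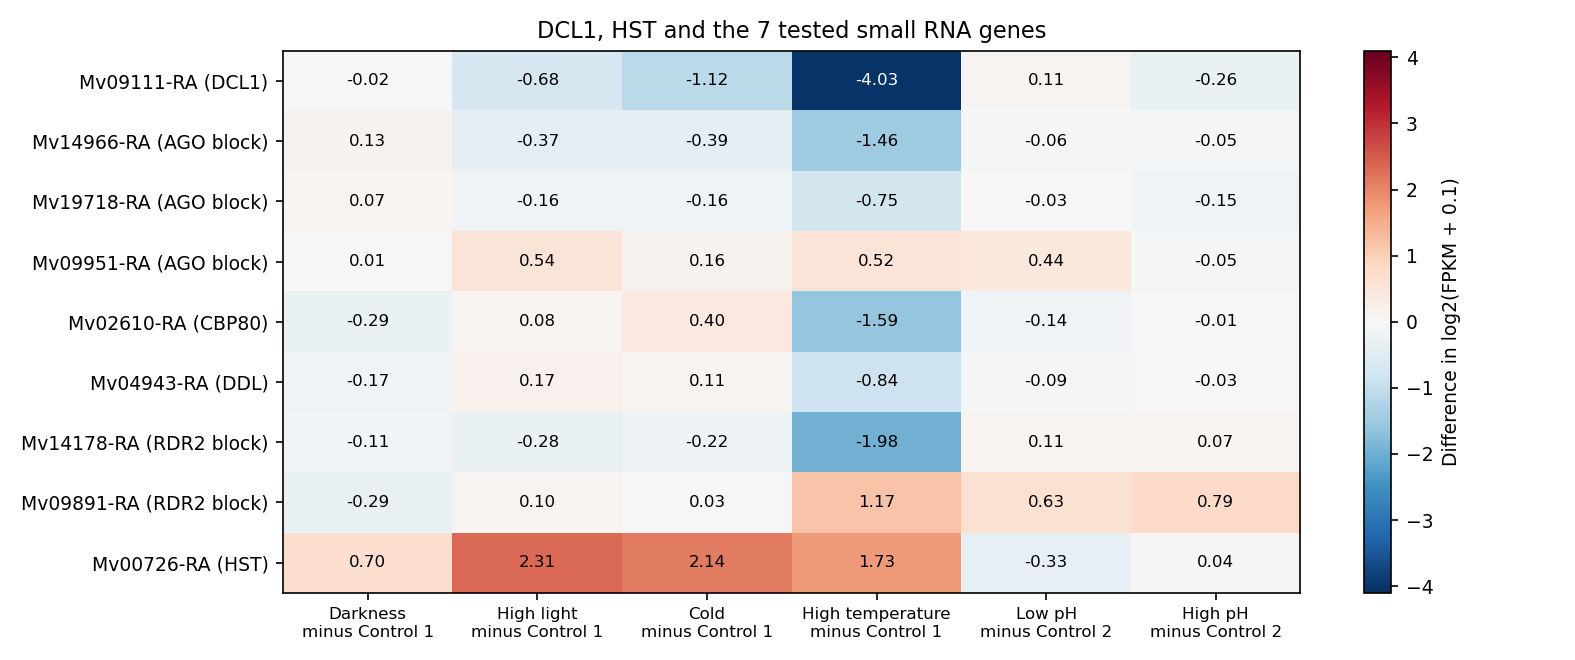
Difference in log2(FPKM + 0.1) from the matching control for DCL1, the 7 tested small RNA genes and HST (rows) in 6 comparisons (columns), with blue for lower and red for higher than the control. Outside high temperature the 7 genes between DCL1 and HST stay within 0.79 of 0; the values of HST under high light and in cold chose the gene and are shown as a description.

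The rest of the list of epigenetic genes and the list of photosynthesis genes give the setting. Of the 36 other epigenetic genes tested, 0 were called by limma under high light (11 had an unadjusted p under 0.05), 1 as higher and 1 as lower in cold, 7 as lower in darkness, 1 as lower at each pH and 31 as lower at high temperature, where their median log2 difference was -2.80. Over all genes tested the share called was 5.81% under high light, 12% in cold, 5.15% in darkness, 1.57% at low pH and 2.25% at high pH, and the share called as lower at high temperature was 55.3%. DCL1 was thus below the median of the list it belongs to at high temperature, and HST was above all of the 36, the highest of which was at 0.22. Of 12 photosynthesis genes tested, counted with ABA1 (zeaxanthin epoxidase, an enzyme of the xanthophyll cycle and of abscisic acid synthesis), 2 were called as lower in darkness, 4 as higher under high light, 5 as higher and 1 as lower in cold, and 3 as higher and 3 as lower at high temperature, to be read beside the same shares over all genes (62.2% called in either direction at high temperature) with 12 genes in the list. These lists, like DCL1 and HST, were chosen with earlier results known.

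Genes with the most similar pattern were found by the root mean square (RMS) difference of log2(FPKM + 0.1), each gene centred on its own mean, over the 15 libraries. Genes found this way share highs and lows with DCL1 or HST by selection, so their values below are a description. HST was picked by its levels under high light and in cold, so its small number of close neighbours is a description too. Only 28 of 14296 other genes lay within an RMS of 0.5, and the median gene lay at 1.40. The 5 nearest were Mv15785-RA (0.250), Mv07109-RA (0.262), Mv26072-RA (0.280), Mv16308-RA (0.296) and Mv14100-RA (0.319). The fifth, Mv14100-RA, is the gene listed as ABA1.

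ABA1 had 135 and 132 FPKM in darkness, 442 and 419 under high light, 370.0 and 372 in cold, and 394 and 395 at high temperature, against 144 FPKM in Control 1. Like HST it was high in the same 3 conditions, which follows from its selection as a near gene. Unlike HST it was not above Control 1 in darkness (log2 difference -0.10, adjusted p = 0.334), where HST had 0.70. At low pH ABA1 had 77.8 and 77.2 FPKM and at high pH 80.1 and 84.3 FPKM, against 133 and 117 FPKM in Control 2.

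By the same selection, the other 4 nearest genes also had their highest condition means in the 3 conditions in which HST was highest. Mv15785-RA had a mean of 68.8 FPKM at high temperature, 64.4 in cold, 72.2 under high light and 32.1 in darkness, against 16.3 FPKM in Control 1. Without the high temperature libraries 3 of the 5 nearest genes kept their place among the first 5, and 19 of the nearest 25 stayed among the first 25.

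DCL1 had many close neighbours, since 1983 genes lay within an RMS of 0.5 and the median gene lay at 0.957. The nearest were Mv14589-RA (0.158), Mv12001-RA (0.166), Mv14429-RA (0.170), Mv14882-RA (0.175) and Mv14413-RA (0.180). As follows from their selection, all 5 had their lowest condition mean at high temperature. Mv14589-RA had 0.418 FPKM there, against 7.07 FPKM in Control 1. Without the high temperature libraries 0 of the 5 remained among the first 5 and 1 of 25 among the first 25. The 5 still lay close to DCL1 then, at an RMS of 0.151 to 0.171 and ranks 32 to 110. Their places among the many near genes therefore rest on that condition, but their likeness to DCL1 does not rest on it alone. The RMS between DCL1 and HST was 2.0, which put HST at rank 13903 of 14296 by nearness to DCL1. The nearest gene to DCL1 on the small RNA list was Mv14178-RA, at rank 3503 (0.637), and the nearest to HST was Mv09891-RA, at rank 1104 (1.02).

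**Figure D5:**
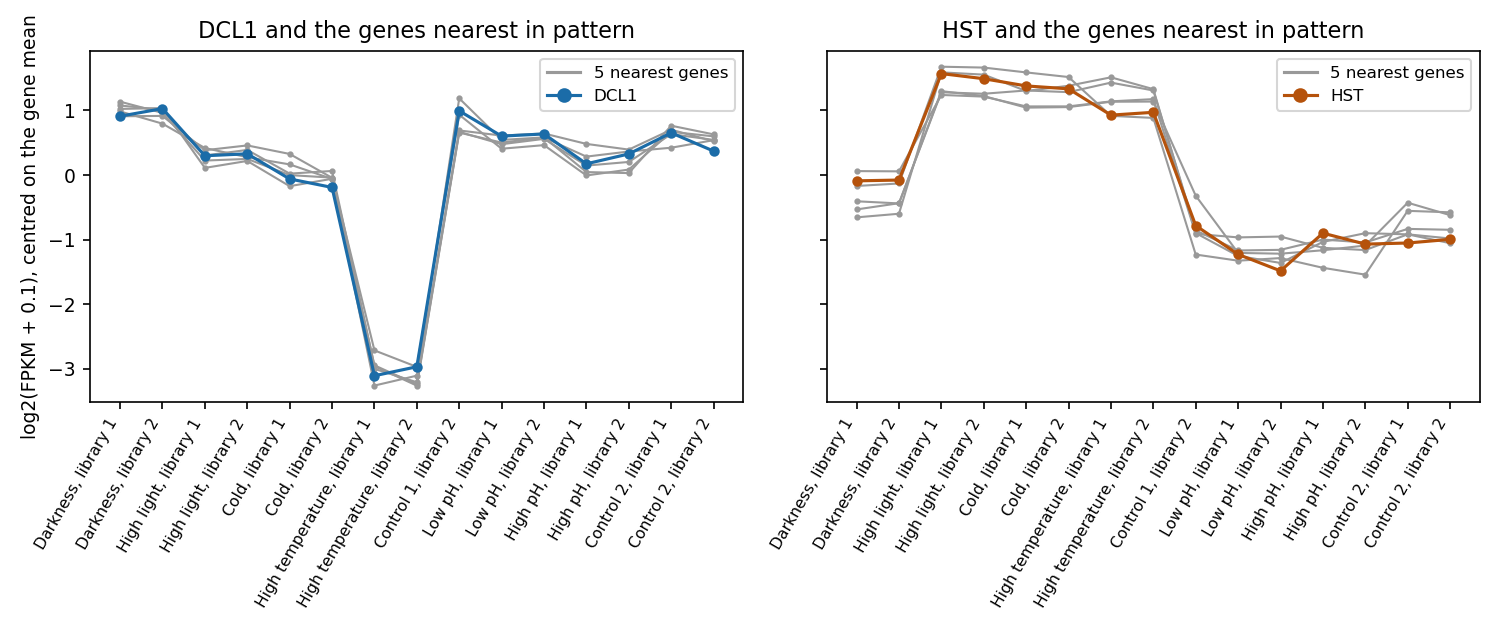
log2(FPKM + 0.1) centred on each gene's mean in the 15 libraries (horizontal axis, by condition and library number), for DCL1 (left, blue) and HST (right, orange) with the 5 genes nearest to each in grey. The DCL1 group falls together at high temperature, with RMS differences of 0.158 to 0.180 from DCL1, and the HST group (0.250 to 0.319) is high at high temperature, in cold and under high light, and spreads more in darkness.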

How the data were processed

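Poly(A) RNA of *M. viride* was sequenced as stranded paired-end libraries. Reads were filtered (FastQC) and mapped by HISAT2, and the authors deposited 1 table of Cufflinks FPKM values per library. The authors ran DESeq2 for their own comparisons, which were not used here. The sum of FPKM over genes was 578174 to 683704 per library (median 626030). The number of fragments behind a value is unknown, so the precision of low values such as those of DCL1 at high temperature is unknown too. Replicate 1 of Control 1 is not used here, and 2 listed epigenetic genes were not analysed here.

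Values were transformed to log2(FPKM + 0.1). Genes reaching 0.5 FPKM in 2 or more libraries entered a limma 3.58.1 model (R 4.3.3) of the 15 libraries that gave each condition its own mean, left 7 residual degrees of freedom and used a variance trend on mean expression and Benjamini-Hochberg adjustment. Control 1, with 1 library, takes its spread from the other conditions. The procedure was tested on simulated data. Similarity of pattern was computed in Python 3.11.15. Replicates are named biological in the methods, without further detail on the cultures.

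DCL1, HST, the lists and the rules were chosen with earlier results of these data known. The rule named DCL1 and HST, small RNA genes called outside high temperature (there were 0), the highest and lowest of each block, the 5 genes nearest in pattern to each, and listed genes among the nearest 25. Small RNA genes called at high temperature were named outside this rule, after their values were seen. Alternatives were other pseudocounts, minimums, an FDR of 0.05, scalings, a replicate block, a robust variance prior, other references, a fit to 2 conditions, leaving out libraries and other measures of pattern.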

Additional observations from a re-analysis of the deposited data

How the results depend on the processing

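The calls of DCL1 and HST at high temperature kept their direction and side of the thresholds under all alternatives run. DCL1 ranged from -4.45 (0.01 added to FPKM) to -2.37 (1 added) and HST from 1.62 (1 added) to 3.04 (libraries scaled by the median of gene ratios). In no other tested comparison was DCL1 or HST called under any alternative. Uncalled values near 0 changed sign: over the alternatives DCL1 ran from -0.10 to 0.46 in darkness and from -0.03 to 0.25 at low pH, and HST from -0.05 to 0.19 at high pH. Leaving out the only Control 1 library gave no value. Replicate numbers did not pair the samples: over 21 pairs of conditions the correlation of the differences between replicates was -0.08 to 0.07, and 0 were over 0.1. With the replicate number as a block the high temperature log2 differences were -4.03 for DCL1 and 1.70 for HST, and no call of either gene changed.

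Under high light the log2 difference of HST was 2.19 with 1 added, 2.45 with gene-ratio scaling, 2.46 with quantile normalization, 2.55 against Control 2 and 2.47 against all 3 untreated libraries. That of DCL1 was -0.54, -0.46, -0.20 and -0.36 under the last 4 of these. In cold HST had 2.02 with 1 added, 2.27 with equal FPKM totals, 2.34 with gene-ratio scaling, 2.30 with quantile normalization, 2.38 against Control 2 and 2.30 against the untreated libraries, and DCL1 had -0.90 with 1 added, -0.91 with gene-ratio scaling, -0.73 with quantile normalization, -0.64 against Control 2 and -0.80 against the untreated libraries. The cause was not tested. The log2 ratio of HST to DCL1 at high temperature was 6.22 with 0.1 added to both, against 6.72 without. Without 1 library it was 0.86 to 1.19 at high pH and 0.54 to 0.89 in Control 2.

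The number of called genes changed by over 1.5 times in these settings: darkness 1464 against Control 2 and 478 in a fit to the 2 conditions (main 737), high light 510 in that fit (830), cold 1138 with 1 added and 833 in that fit (1722), high pH 198 with 1 added (322), and Control 2 minus Control 1 304 with 1 added, 0 in the limma fit to the 2 conditions (3703 genes with an unadjusted p under 0.05) and 300 to 399 without 1 library, the lowest without Control 2 replicate 1 (485). Scaling moved the split of calls: at high temperature 977 genes were higher and 7909 lower, against 3325 and 3864 with gene-ratio scaling, and in cold 538 and 1184, against 744 and 616. Of the 5 genes nearest to DCL1, 0 remained without high temperature and 2 by Pearson correlation, and 1 to 5 without 1 library (1 without the first high temperature library, 2 without the second or without Control 2 replicate 2). Of those nearest to HST, 3, 1 and 4 to 5 remained.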
